A study of Mus musculus with 6 samples.

Results

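The 10 genes described here encode the machinery of excitation-contraction coupling at the triad of skeletal muscle, and were examined in cultured mouse satellite cells (SCs) from mice with a conditional deletion of NF-YA (NF-YA cKO) or from controls (NF-YA fl/fl). They were listed by name for their known role, and are Ryr1, Ryr3, Cacna1s, Cacna2d1, Cacnb1, Cacng1, Jph1, Jph2, Stac3 and Trdn. All 10 were among the 35976 genes of the deposited tables, and all 10 were among the 17348 genes with enough counts to be tested. The libraries were 3 of each genotype. In NF-YA cKO mice, homozygous floxed NF-YA alleles were combined with Pax7-CreERT2, a Cre recombinase that is driven by the Pax7 promoter and activated by tamoxifen, so that deletion is limited to cells that express Pax7 or descend from them. NF-YA fl/fl controls carried the same floxed alleles without Cre, and both genotypes received tamoxifen (20 mg/ml). The labels give an age of 5 to 7 weeks. SCs were enriched from hindlimb muscle by magnetic depletion of endothelial, blood and Sca1-positive cells, grown on Matrigel in growth medium and used for stranded total RNA libraries from 500 ng of RNA.

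In a muscle fiber the triad is the place where a transverse tubule of the plasma membrane meets the terminal cisternae of the sarcoplasmic reticulum. Cacna1s forms the voltage sensor of the tubule, an L-type calcium channel held together with the auxiliary subunits encoded by Cacnb1, Cacna2d1 and Cacng1 and with the adaptor Stac3. On depolarization the sensor opens the ryanodine receptor Ryr1 in the reticulum by direct mechanical coupling, and the calcium released starts contraction. Ryr3 is a second release channel of developing muscle, junctophilins (Jph1 and Jph2) tether the reticulum to the tubule, and triadin (Trdn) anchors calsequestrin, the calcium store, to the release channel. Proliferating satellite cells have no triads, which assemble as myoblasts fuse and mature into myotubes.

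Library totals were 26936230 to 41118984 expected counts, so that 3 counts corresponded to 0.0705 to 0.115 CPM, the count scaled to library size. The transcript entry for the deleted NF-YA allele held 22.3%, 26.4% and 34.2% of the Nfya counts in the NF-YA cKO libraries. It held 0 in the NF-YA fl/fl libraries. Undeleted transcripts thus held 65.8% to 77.7% of the counts in NF-YA cKO. By TPM, which is scaled to transcript length, the deleted entry held 27.2%, 32.0% and 40.5% of the gene there. The summed level of all Nfya transcripts was 27.0 to 28.5 CPM in NF-YA cKO and 23.4 to 36.9 CPM in NF-YA fl/fl (log2 fold change -0.06 ± 0.18, SE, FDR 0.814), and the genotypes overlapped. Libraries were also separated by sex-linked genes exactly as by genotype, with Xist at 836 to 852 CPM in NF-YA cKO against 0.306 to 0.475 CPM in NF-YA fl/fl and Ddx3y at 0.0470 to 0.0957 against 80.9 to 88.6 CPM. The study's methods speak of male mice for the tamoxifen treatment, which these values in the NF-YA cKO libraries go against. Differences by sex and by genotype therefore cannot be told apart for any gene. This holds for the 10 genes too, although 0 of them lie on chromosome X or Y. NF-YA fl/fl replicate 3 stood apart from the other two controls, with a summed level of fibro-adipogenic markers of 37.5 CPM against 182 and 205 CPM and with Myod1 at 1146 CPM against 361 and 295 CPM. Values without this library are given where they matter. The labels number the libraries within each genotype but do not say whether each is a separate mouse or culture, so that p-values measure the spread between these libraries, which may be partly technical.

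Transcripts of the coupling machinery were scarce in NF-YA cKO cultures. Of the 10 genes, 9 were called lower in NF-YA cKO by edgeR's quasi-likelihood test (FDR under 0.01 after Benjamini-Hochberg adjustment and a log2 fold change below -1) and 0 were called higher. The median log2 fold change of the 10 genes was -3.30, beside -0.02 over all tested genes. Over all tested genes 7.67% were called lower and 4.65% were called higher. For all 10 genes every NF-YA cKO library lay below every NF-YA fl/fl library, as it did for 26.2% of all tested genes. The summed TPM of the 10 genes was 63.2, 67.3 and 82.9 in the NF-YA cKO libraries and 435, 402 and 449 in the NF-YA fl/fl libraries. TPM is scaled to transcript length and allows a comparison between genes. Fold changes are given on the CPM scale.

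**Figure D1:**
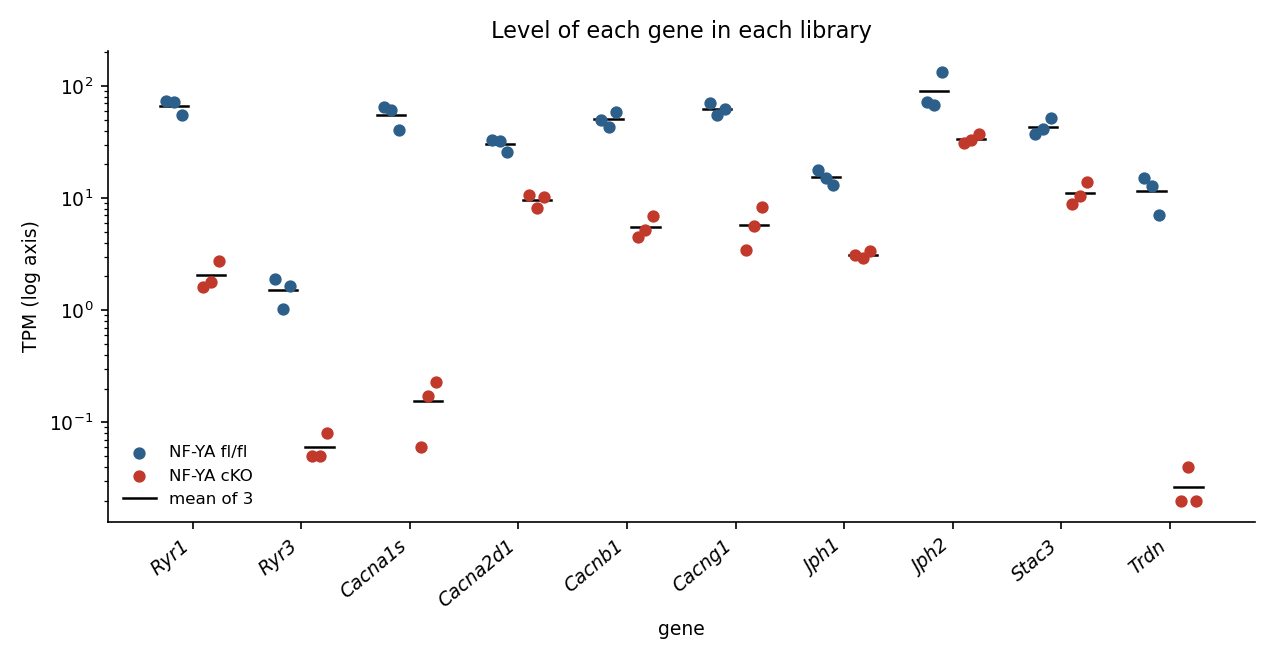
TPM of each of the 10 coupling genes (log axis) in the 3 NF-YA fl/fl and 3 NF-YA cKO libraries. Each point is 1 library and each bar the mean of 3. The genotypes do not overlap for any gene, and the gap is narrowest for Jph2 (30.9 to 37.0 TPM against 67.6 to 133 TPM) and widest for Trdn and Cacna1s.

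The pore and voltage sensor of the tubule, Cacna1s (chromosome 1, 136052806 to 136119822, plus strand, GRCm38), was almost lost. Its level was 0.06, 0.17 and 0.23 TPM in NF-YA cKO and 65.3, 61.1 and 40.7 TPM in NF-YA fl/fl. All 3 NF-YA cKO libraries were under 1 TPM, whereas in the controls the gene was among the more abundant of the 10. The log2 fold change was -8.34 ± 0.43 (SE, FDR 7.16e-05), and -5.59 with limma on log2(TPM + 1), which understates the change of low genes. From the 106 counts summed over the NF-YA cKO libraries, the level was 317 times lower (95% counting interval 262 to 387, which covers counting error only).

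The auxiliary subunits of the same channel had smaller fold changes. Cacnb1 (chromosome 11, 98001508 to 98023034, minus strand) encodes the cytoplasmic β subunit that brings the pore to the tubule. It was at 4.46, 5.21 and 6.92 TPM in NF-YA cKO and at 50.2, 43.3 and 59.0 TPM in NF-YA fl/fl, and its log2 fold change was -3.24 ± 0.29 (SE, FDR 0.000546). Cacng1 (chromosome 11, 107703218 to 107716476, minus strand), the γ subunit of the muscle channel, was at 3.44, 5.65 and 8.34 TPM against 70.0, 55.5 and 62.1 TPM. Its log2 fold change of -3.36 ± 0.37 (SE, FDR 0.00104) was close to that of Cacnb1. Cacna2d1 (chromosome 5, 15934264 to 16374511, plus strand) encodes the extracellular α2δ subunit, which is also used by channels of other tissues. It was at 10.7, 8.20 and 10.2 TPM against 32.9, 32.2 and 25.6 TPM. This was the smallest change among the genes called, a log2 fold change of -1.65 ± 0.10 (SE, FDR 0.000147).

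Stac3 (chromosome 10, 127501617 to 127508823, plus strand) encodes the adaptor that muscle needs for a working sensor at the triad. Its level was 8.79, 10.4 and 13.9 TPM in NF-YA cKO and 37.0, 41.1 and 52.0 TPM in NF-YA fl/fl. The log2 fold change was -1.92 ± 0.28 (SE, FDR 0.00283). The call ended when any 1 of the NF-YA cKO libraries or NF-YA fl/fl replicate 1 was left out (FDR 0.0102 to 0.0171), with log2 fold changes of -2.10 to -1.78 in these fits.

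Of the release channels, Ryr1 (chromosome 7, 29003340 to 29125179, minus strand) was the more abundant in both genotypes. Ryr1 was at 1.61, 1.78 and 2.73 TPM in NF-YA cKO and at 73.1, 72.5 and 55.0 TPM in NF-YA fl/fl, and its log2 fold change was -5.00 ± 0.25 (SE, FDR 6.58e-05). Ryr3 (chromosome 2, 112631354 to 113217405, minus strand) was low already in the controls. It was at 0.05, 0.05 and 0.08 TPM against 1.91, 1.03 and 1.64 TPM. Its log2 fold change was -4.63 ± 0.41 (SE, FDR 0.000519), and it rested on 22, 31 and 48 counts in the NF-YA cKO libraries. With limma it was -3.31 on log2(TPM + 0.1) and -1.24 on log2(TPM + 1). From these counts the level was 24.5 times lower (95% counting interval 20.2 to 30.1).

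Among the genes that build the junction, the change ranged from the largest of the 10 to the smallest. Trdn (chromosome 10, 33083483 to 33476709, plus strand), the calsequestrin anchor, was near the limit of counting in NF-YA cKO. It had 3, 8 and 3 counts there, or 0.02, 0.04 and 0.02 TPM, against 15.2, 12.8 and 7.02 TPM in NF-YA fl/fl. The log2 fold change was -8.47 ± 0.40 (SE, FDR 5.79e-05), and the pooled level was 364 times lower (95% counting interval 217 to 666). With limma on log2(TPM + 1) the log2 fold change was -3.56. Jph1 (chromosome 1, 16942104 to 17097922, minus strand), the junctophilin particular to skeletal muscle, was at 3.10, 2.92 and 3.37 TPM against 17.7, 15.1 and 13.1 TPM. Its log2 fold change was -2.15 ± 0.14 (SE, FDR 0.000184).

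Jph2 (chromosome 2, 163336242 to 163398049, minus strand), the junctophilin that heart and skeletal muscle share, was the only gene of the 10 that was not called. It was at 30.9, 32.9 and 37.0 TPM in NF-YA cKO and at 71.8, 67.6 and 133 TPM in NF-YA fl/fl. The genotypes did not overlap, and the highest value was that of NF-YA fl/fl replicate 3. The log2 fold change of -1.43 ± 0.38 (SE) had an FDR of 0.0249. Without that control the spread was smaller but so was the change, at -0.84 ± 0.14 (SE, FDR 0.00372), which is under the fold threshold. DESeq2 called the gene at a log2 fold change of -1.44 ± 0.38 (SE, FDR 0.000619).

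The order of the levels differed between the genotypes. In NF-YA fl/fl the mean TPM ran from Jph2 (90.7 ± 36.4, SD, n = 3) through Ryr1 (66.9 ± 10.3), Cacng1 (62.5 ± 7.30), Cacna1s (55.7 ± 13.2) and Cacnb1 (50.8 ± 7.88) to Stac3 (43.3 ± 7.76), and the ranges of each of these neighbours overlapped. Cacna2d1 stood apart below them, and below it came Jph1 and Trdn, which overlapped, and Ryr3, which stood apart. In NF-YA cKO, Jph2 (33.6 ± 3.11) stood apart at the top and held 44.7% to 48.9% of the summed TPM of the 10 genes, against 16.5% to 29.5% in NF-YA fl/fl. Stac3 (11.0 ± 2.64), Cacna2d1 (9.72 ± 1.34), Cacng1 (5.81 ± 2.45) and Cacnb1 (5.53 ± 1.26) came next with overlapping ranges between neighbours. Jph1 and Ryr1 each stood apart below these. Cacna1s, at rank 4 in the controls, came at rank 8 here, in a range that overlapped with that of Ryr3, and Trdn was last.

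Transcripts of the channel's partners were also compared with those of the pore itself. The ratio of each partner to Cacna1s was compared on the log2 scale after adding 0.1 to each TPM value. For Stac3 this log2 ratio was 5.49 ± 0.27 (SD, n = 3) in NF-YA cKO and -0.35 ± 0.62 in NF-YA fl/fl. The log2 ratio was 5.33 ± 0.65 against -0.86 ± 0.17 for Cacna2d1, 4.51 ± 0.28 against -0.11 ± 0.56 for Cacnb1 and 4.52 ± 0.14 against 0.19 ± 0.38 for Cacng1. That of Ryr1 to Cacna1s was 3.11 ± 0.31 against 0.28 ± 0.14. The genotypes did not overlap in any of these ratios. Each gave a two-sided p of 0.1 in an exact permutation test, which is the smallest that 3 libraries against 3 allow, and 0.117 after adjustment over the 7 ratios compared. For Jph1 to Jph2 the log2 ratio was -3.38 ± 0.09 against -2.50 ± 0.72, and the genotypes overlapped (exact permutation p = 0.2, adjusted 0.2). Without NF-YA fl/fl replicate 3 they did not overlap, and the difference was -1.30 in place of -0.88 (exact permutation p = 0.1, the smallest that 3 libraries against 2 allow). The size of the ratios to Cacna1s rested on the value added, since Cacna1s was at 0.06 to 0.23 TPM in NF-YA cKO. With 1 added in place of 0.1, the difference between genotypes was 3.70 in place of 5.84 for Stac3, 4.05 in place of 6.19 for Cacna2d1, 2.60 in place of 4.63 for Cacnb1, 2.31 in place of 4.33 for Cacng1 and 1.11 in place of 2.83 for Ryr1, and the exact permutation p stayed at 0.1. For Ryr3 to Ryr1 the difference between genotypes was 1.68 with 0.1 added to TPM, 3.25 with 1 added and 0.62 on the CPM scale, so that its size rested on the value added as well.

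The share of each gene within its own family was then computed from TPM without any added value. Among the pores of L-type channels (Cacna1s, Cacna1c, Cacna1d and Cacna1f), Cacna1s held 95.4%, 93.0% and 98.5% in NF-YA fl/fl and 3.35%, 13.4% and 11.9% in NF-YA cKO. The summed TPM of this family was 58.5 on average in NF-YA fl/fl and 1.67 in NF-YA cKO. Among β subunits, Cacnb1 held 74.5%, 65.8% and 85.8% in NF-YA fl/fl and 21.5%, 33.1% and 35.8% in NF-YA cKO. Both differences left the genotypes apart (exact permutation p = 0.1, adjusted 0.25 over 5 shares). The other families kept the same leading member. Cacna2d1 held 99.1% ± 0.507 (SD, n = 3) of the α2δ transcripts in NF-YA fl/fl and 99.2% ± 0.371 in NF-YA cKO. Jph2 held 83.9% ± 5.96 of the junctophilins in NF-YA fl/fl and 90.4% ± 0.709 in NF-YA cKO. Ryr3 held 2.28% ± 0.782 of the ryanodine receptors in NF-YA fl/fl and 2.85% ± 0.132 in NF-YA cKO. The genotypes overlapped in these 3 shares (exact permutation p of 0.3 to 0.9). For Jph2 and Ryr3 the overlap came from NF-YA fl/fl replicate 3, in which Jph2 held 90.7% and Ryr3 2.90%. Without this library the difference for Jph2 was 9.93 percentage points in place of 6.52 and that for Ryr3 0.881 in place of 0.573 (exact permutation p = 0.1 for each, the smallest that 3 against 2 allow).

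**Figure D2:**
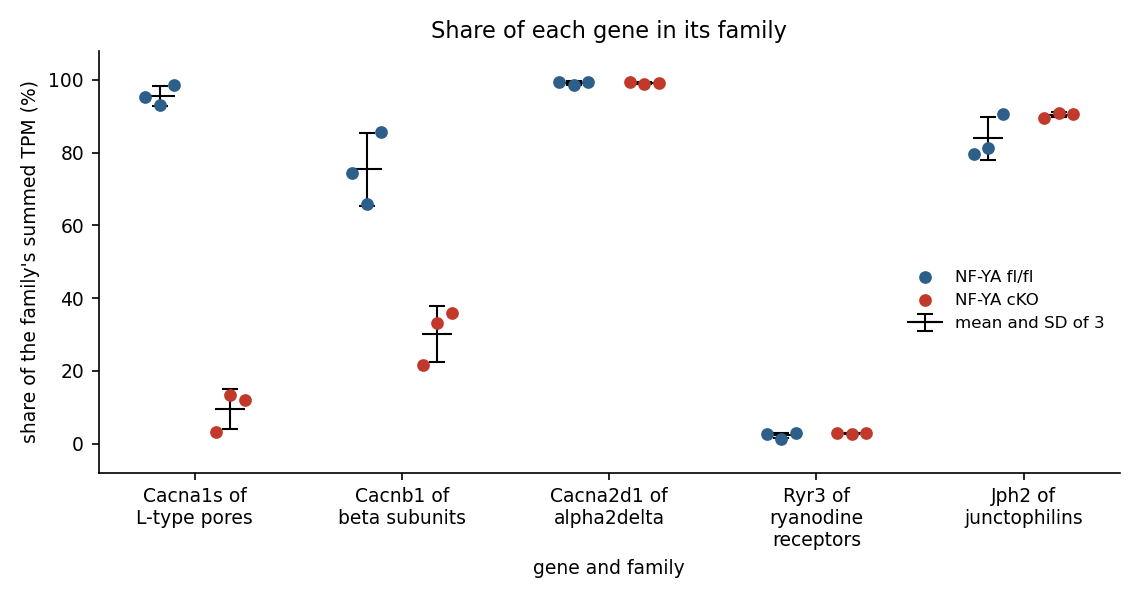
Share (%) of the summed TPM of its gene family held by Cacna1s, Cacnb1, Cacna2d1, Ryr3 and Jph2. Points are libraries, and bars give the mean and SD of 3. Cacna1s falls from 95.6% to 9.53% and Cacnb1 from 75.4% to 30.1% on average, while the ranges of the other 3 genes overlap between genotypes, for Jph2 and Ryr3 through 1 control library.

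The deposited tables also split each gene among its annotated transcripts, as the percent of the TPM of the gene that each transcript holds. These percentages are estimates made from reads that transcripts share. The 10 genes had 68 listed transcripts, of which 56 were above 0 in at least 1 library. The 40 transcripts of genes with more than 50 counts in every library were compared, and 17 of them did not overlap between the genotypes (exact permutation p = 0.1, adjusted 0.235). Among all 41612 transcripts meeting the same conditions, 19.0% did not overlap, and shares within 1 gene sum to a fixed total, so that transcripts of 1 gene are not independent. The structures of the transcripts were then compared exon by exon for those that match a GENCODE model on GRCm38. The coding exons described next were picked after their values were seen. Their sequences are printed 5′ to 3′ on the strand of the gene, as they show what separates the forms.

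In Cacna2d1 2 neighbouring coding segments differed between forms. One is a cassette exon of 57 nt (chr5:16322539-16322595). The other is an extension of 15 nt at the 5′ end of an exon (chr5:16326312-16326383), printed in capitals, so that the exon is 72 or 57 nt long. All these lengths are multiples of 3.

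Cacna2d1 cassette exon: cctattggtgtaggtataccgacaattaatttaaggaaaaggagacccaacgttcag

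Cacna2d1 exon with the extension: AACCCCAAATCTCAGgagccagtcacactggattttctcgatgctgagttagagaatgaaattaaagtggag

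Over the transcripts of known structure, which held 70.5% to 85.1% of the gene, the extension was present in 84.0%, 79.5% and 85.5% of Cacna2d1 in NF-YA fl/fl and in 42.2%, 34.6% and 36.7% in NF-YA cKO. Among these transcripts the form without it was thus the main one in all 3 NF-YA cKO libraries and the minor one in all 3 controls. The cassette exon was present in 35.2%, 40.9% and 7.01% in NF-YA fl/fl and in 1.60%, 0% and 0% in NF-YA cKO. It was less frequent in NF-YA fl/fl replicate 3 than in the other controls, while the extension was not. Both differences gave an exact permutation p of 0.1, the smallest possible. A further exon of 21 nt (chr5:16341990-16342010) was at 0 in all 6 libraries.

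In Cacnb1 an exon of 155 nt (chr11:98011343-98011497) and an exon of 20 nt (chr11:98010627-98010646) excluded each other in the annotated forms. Both encode protein, in the linker between the conserved domains of the β subunit.

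Cacnb1 longer exon: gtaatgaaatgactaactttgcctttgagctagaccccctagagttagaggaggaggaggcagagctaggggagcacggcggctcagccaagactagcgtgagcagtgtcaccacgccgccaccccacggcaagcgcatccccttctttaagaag

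Cacnb1 shorter exon: ccaaacagaagcagaaatcg

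Cacnb1 transcripts of known structure held 70.2% to 76.7% of the gene in NF-YA cKO and 83.4% to 91.1% in NF-YA fl/fl. Among them the longer exon was present in 93.7%, 83.9% and 76.5% in NF-YA fl/fl and in 48.5%, 66.1% and 48.8% in NF-YA cKO. The genotypes did not overlap (exact permutation p = 0.1). The forms with the longer exon rested on 78.05 to 220.8 estimated counts in NF-YA cKO. A pair of listed transcripts with the shorter exon matched the same GENCODE model. With either of these left out the mean share of the longer exon was 63.9% or 70.6% in NF-YA cKO and 88.6% or 93.3% in NF-YA fl/fl, and the genotypes remained apart.

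**Figure D3:**
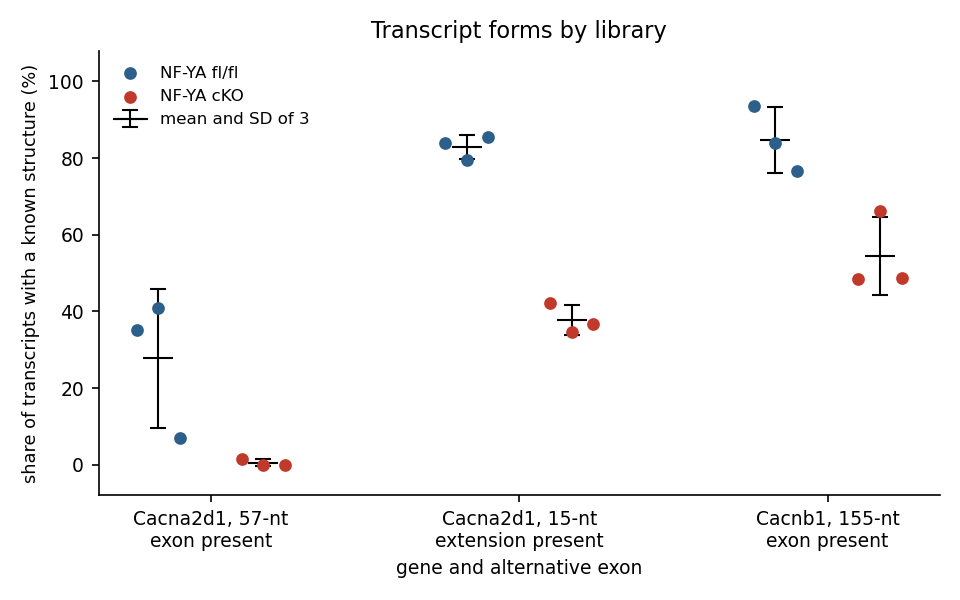
Share (%) of Cacna2d1 transcripts with the cassette exon of 57 nt, of Cacna2d1 transcripts with the extension of 15 nt, and of Cacnb1 transcripts with the exon of 155 nt, over transcripts of known structure. Points are libraries, and bars give the mean and SD of 3. All 3 shares are lower in NF-YA cKO, on average 0.534% against 27.7%, 37.8% against 83.0% and 54.4% against 84.7%.

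Cacna1s has a cassette exon of 57 nt, exon 29 of its longer form (chr1:136104570-136104626). The channel of adult muscle includes this exon and the embryonic form skips it, which makes it a marker of the maturity of the channel.

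Cacna1s exon 29: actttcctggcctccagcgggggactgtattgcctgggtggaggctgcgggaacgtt

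In NF-YA fl/fl the exon was present in 1.89%, 2.66% and 1.02% of the Cacna1s transcripts of known structure, which held 57.2%, 46.6% and 62.0% of the gene. The form that skips it was thus the main one of known structure in the control cultures. In NF-YA cKO, where the gene had 10 to 53 counts, the transcript with the exon had 0 counts, and the forms were not compared.

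Most genes of a list of others that work at the triad and in the reticulum were also called lower. Of these 25 genes, all of them tested, 17 were called lower, 0 higher and 8 were not called, with a median log2 fold change of -2.09. By comparison, 7.67% of all tested genes were called lower and 4.65% higher. Among those called were 3 genes of calcium-binding proteins of the reticulum lumen. Casq1, the calsequestrin of fast fibers, was at 0.19 to 0.42 TPM in NF-YA cKO and at 47.5 to 141 TPM in NF-YA fl/fl (log2 fold change -8.22 ± 0.48, FDR 0.000110). Casq2, the cardiac and slow form, was at 0.37 to 1.10 TPM against 124 to 205 TPM (log2 fold change -7.75 ± 0.42, FDR 8.73e-05). Hrc, a calcium-binding protein of the reticulum lumen, had a log2 fold change of -8.06 ± 0.34 (SE, FDR 5.06e-05).

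The calcium pumps of the reticulum differed. Atp2a1, the pump of fast muscle, was at 1.70 to 2.59 TPM in NF-YA cKO and at 195 to 275 TPM in NF-YA fl/fl (log2 fold change -6.81 ± 0.32, FDR 5.72e-05). Atp2a2, the pump of heart, slow muscle and other cells, was at 124 to 148 TPM against 183 to 208 TPM and was not called (log2 fold change -0.39 ± 0.14, FDR 0.0584). The 8 genes not called also included Fkbp1a and Fkbp1b, which bind ryanodine receptors and are present in many cells, Asph, whose locus also makes junctin, Homer1, S100a1, Pln and Ank1. Of these, Ank1 came closest to the threshold (log2 fold change -2.09 ± 0.45, FDR 0.0116), and the others had log2 fold changes of -0.22 to 0.39. Cav3, the caveolin of muscle, was called lower (log2 fold change -6.92 ± 0.30, FDR 5.29e-05), as was Bin1, which shapes the transverse tubule (log2 fold change -1.56 ± 0.16, FDR 0.000783).

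**Figure D4:**
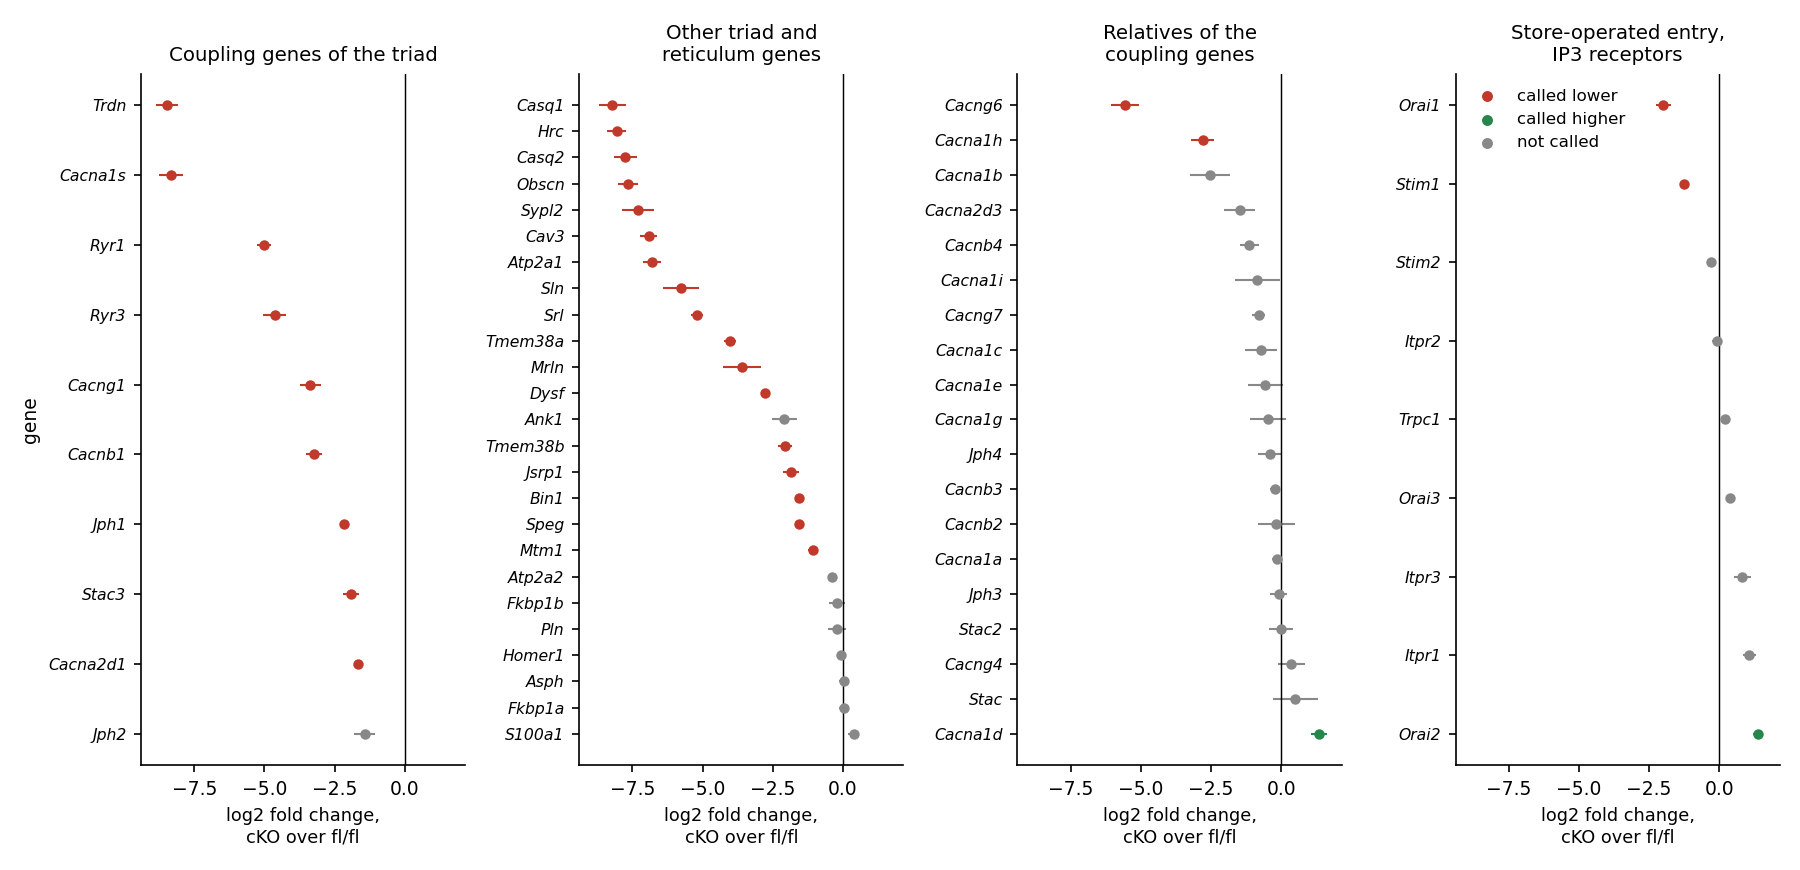
Log2 fold change (NF-YA cKO over NF-YA fl/fl, with SE) of the tested genes of 4 lists, namely the 10 coupling genes, 25 other genes of the triad and reticulum, 19 relatives of the coupling genes and 9 genes of store-operated calcium entry and IP3 receptors. Red points were called lower, green points higher and grey points were not called. Calls toward lower levels number 9, 17, 2 and 2 in these lists.

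Relatives of the 10 genes in the same families moved less. Of 27 such genes 19 were tested, 2 were called lower and 1 higher, with a median log2 fold change of -0.45. Beside these counts, 7.67% of all tested genes were called lower and 4.65% higher. Cacng6, a γ subunit that skeletal muscle also expresses, was at 0.13, 0.12 and 0.54 TPM in NF-YA cKO and at 14.7, 14.2 and 11.6 TPM in NF-YA fl/fl (log2 fold change -5.57 ± 0.50, FDR 0.000519). Cacna1h, a T-type channel of immature muscle, was at 0.04 to 0.09 TPM against 0.42 to 0.56 TPM (log2 fold change -2.80 ± 0.40, FDR 0.00253). Cacna1d, an L-type channel of endocrine, neural and pacemaker cells, was higher in NF-YA cKO, although at 0.11 to 0.13 TPM against 0.04 to 0.07 TPM (log2 fold change 1.35 ± 0.28, FDR 0.00945). In 9 of 13 alternative analyses 0 relatives were called higher.

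The relatives with the largest shares of the L-type pores and the β subunits in NF-YA cKO, Cacna1c and Cacnb3, were not called higher. Cacna1c, the L-type channel of heart and smooth muscle, was at 1.59, 0.98 and 1.56 TPM in NF-YA cKO and at 3.11, 4.50 and 0.58 TPM in NF-YA fl/fl (log2 fold change -0.71 ± 0.57, FDR 0.358). The low control value was that of replicate 3. Fibro-adipogenic markers were mixed in that library, with Pdgfra at 21.6 CPM against 132 and 147 CPM in the other controls. Dpp4 was at 3.12 CPM there against 1.76 and 2.36 CPM. The summed smooth muscle and pericyte markers were at 196 CPM against 361 and 426 CPM. A link of these markers to Cacna1c was not tested. Cacnb3, a widely expressed β subunit, was at 15.2, 9.60 and 11.6 TPM against 16.2, 19.9 and 9.47 TPM (log2 fold change -0.21 ± 0.18, FDR 0.388). Of the remaining relatives with a mean of at least 1 CPM in either genotype, Cacna1a, Cacna1b, Cacna1g, Cacna1i, Cacnb2, Cacnb4, Cacng7 and Stac2 were not called, with log2 fold changes between -2.53 and 0. Ryr2, the ryanodine receptor of the heart, was at 0 to 0.01 TPM in all libraries and was not tested.

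A further list held genes of store-operated calcium entry and the IP3 receptors, other routes by which calcium enters the cell or leaves the reticulum. Of these 9 genes, 2 were called lower, 1 higher and 6 were not called, with a median log2 fold change of 0.22. The shares over all tested genes were 7.67% called lower and 4.65% called higher. Stim1, the calcium sensor of the reticulum, was lower at 8.40, 6.07 and 7.00 TPM against 18.2, 17.8 and 15.2 TPM (log2 fold change -1.24 ± 0.14, FDR 0.00107). Orai1, the channel that Stim1 opens, was lower at 10.6, 6.62 and 8.01 TPM against 32.8, 28.5 and 35.9 TPM (a mean of 8.68 CPM against 34.8 CPM, FDR 0.00208). Its relative Orai2 was higher at 30.6, 30.8 and 31.9 TPM against 9.87, 16.3 and 12.4 TPM (log2 fold change 1.37 ± 0.16, FDR 0.00147). Itpr1, an IP3 receptor of the reticulum, had a mean of 135 CPM against 64.3 CPM and was not called (log2 fold change 1.07 ± 0.24, FDR 0.0133).

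Markers of the cell types that these cultures can hold were examined beside the coupling genes. All 7 markers of differentiated muscle cells were called lower, and their summed level was 41.3 to 106 CPM in NF-YA cKO and 7270.1 to 9503 CPM in NF-YA fl/fl. In such bulk libraries, fewer differentiated cells and less of these transcripts per cell cannot be told apart, for the coupling genes as for the markers. Markers of satellite cells and myoblasts moved less and in both directions. Of these 9, 2 were called lower (Cdh15 and Des) and 0 higher. Myod1 was at 509 to 627 CPM in NF-YA cKO against 295 to 1146 CPM. Every NF-YA cKO library lay below every control for 4 of the 9, beside 26.2% of all tested genes. Every one lay above for 3 of the 9, and the share of all tested genes above is not given here. Those above were Pax7 (log2 fold change 0.94 ± 0.17, FDR 0.00624), Sdc4 (0.80 ± 0.13, FDR 0.00446) and Vcam1 (0.86 ± 0.18, FDR 0.0101). All 6 macrophage markers were called higher in NF-YA cKO, with a summed level of 24.2 to 43.2 CPM against 3.32 to 5.08 CPM, and of 6 neuron and Schwann cell markers 3 were called higher (12.8 to 17.1 CPM against 4.93 to 7.24 CPM), with the neuronal Snap25 and Rbfox3 at or under 3 counts in every library. Of the tested endothelial markers 1 of 4 was called higher (11.6 to 15.9 against 3.66 to 7.29 CPM), and of 5 fibro-adipogenic markers 1 was called higher (156 to 194 against 37.5 to 205 CPM). Of 5 tested smooth muscle and pericyte markers Abcc9, which skeletal muscle also expresses, was called lower (sum 139.9 to 193 against 196 to 426 CPM), and of 3 tested cardiomyocyte markers Myh6 was called lower and Myl7 higher (1.06 to 3.76 against 0.918 to 2.27 CPM). For comparison with these marker counts, 7.67% of all tested genes were called lower and 4.65% higher. The part of these other cells in the results was not tested.

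The genes whose profile over the 6 libraries was nearest to the mean profile of the 10 genes were Erbb3, Trim55, 4933403O08Rik, Neurl1a and Tmod1. Nearness was the Euclidean distance between log2 CPM profiles centered on each gene's own mean, and was 0.196 for Erbb3, a receptor of neuregulin, 0.343 for Trim55, a ubiquitin ligase of the sarcomere, 0.403 for 4933403O08Rik, 0.447 for Neurl1a and 0.494 for Tmod1, which caps thin filaments. Their log2 fold changes were -4.50 to -3.76. Most of such a distance is set by the difference between the genotypes.

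NF-Y is a trimeric factor that binds the CCAAT box, and NF-YA is its sequence-specific subunit. Promoter windows of 300 nt, 250 nt before to 50 nt after the start, were taken from RefSeq (GRCm38.p6) and held 5 of the 10 genes, with 7 windows for Cacna1s, Jph2, Cacna2d1, Ryr1 and Cacnb1. CCAAT was searched on both strands. It was found in the window of Ryr1 and in both windows of Jph2, which share 280 nt and the same matches, and in none of the others. This is 2 of 5 genes, beside 41.1% of the 27025 genes with a window. The start used for the window lies inside the annotated gene, by 28 nt for Ryr1, 56 or 76 nt for Jph2 and 5 nt for Cacna1s. Distances are counted here from the start of the annotated gene. The stretches that lie before that start are shown for these genes with CCAAT or its reverse complement ATTGG in capitals. In Ryr1 (chr7:29125180-29125401, minus strand) the match began 38 nt before the start, and in Jph2 (chr2:163398050-163398243, minus strand) matches began 105 and 24 nt before the start.

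Ryr1 promoter: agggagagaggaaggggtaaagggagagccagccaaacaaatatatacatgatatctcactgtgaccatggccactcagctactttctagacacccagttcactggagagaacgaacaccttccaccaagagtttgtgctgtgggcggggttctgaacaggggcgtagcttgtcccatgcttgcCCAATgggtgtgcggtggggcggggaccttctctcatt

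Jph2 promoter: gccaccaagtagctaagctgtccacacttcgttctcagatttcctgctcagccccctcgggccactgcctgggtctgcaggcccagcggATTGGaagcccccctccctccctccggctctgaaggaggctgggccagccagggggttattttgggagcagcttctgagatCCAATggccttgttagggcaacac

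Of these genes Ryr1 was among those that fell most and Jph2 was the gene that was not called. The E-box CANNTG, which factors of the MyoD family bind, was found in 3 of 5 genes, beside 75.0% of all genes, and its form CAGCTG in 2 of 5, beside 18.3%. In Cacna1s (chr1:136052561-136052805, plus strand), which had no CCAAT match, 2 E-boxes began 155 and 118 nt before the start and are shown in capitals.

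Cacna1s promoter: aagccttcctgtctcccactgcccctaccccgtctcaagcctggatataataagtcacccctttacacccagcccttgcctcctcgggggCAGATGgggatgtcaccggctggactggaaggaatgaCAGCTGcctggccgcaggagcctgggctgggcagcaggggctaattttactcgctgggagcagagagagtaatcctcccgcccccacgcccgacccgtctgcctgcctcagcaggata

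CATTCC, which TEAD factors bind, was found in 1 of 5 genes (Cacna1s), beside 16.6% of all genes. The core of MEF2 sites was found in 0 of 5, beside 4.23%. TCAGGTT, searched as a SIX-type site, was found in 1 of 5 (Cacnb1), beside 4.73%. The start of the Cacnb1 window that held this match and its E-box lies 4662 nt inside the annotated gene. The E-box of Jph2 also lies inside its annotated gene. Each motif was searched on both strands, CAGCTG lies within CANNTG, and a match or its absence describes these letters in this window only.

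Exons of other annotated genes lie over exons of some of the 10 genes on the opposite strand. The tables held Gm26604 over Ryr1, at 0 to 0.08 TPM in NF-YA cKO and 0.95 to 1.82 TPM in NF-YA fl/fl, and Aven over Ryr3, at 19.4 to 21.9 TPM against 11.2 to 19.7 TPM. Whether counting used the strand is not given in the sources used here, and reads of such pairs may not be told apart. For Ryr3, which had 22 to 48 counts in NF-YA cKO, this limits how far its level there can be read.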

How the data were processed

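The authors sequenced stranded total RNA libraries, aligned the reads with Bowtie2 to the mouse transcriptome (mm10) and quantified them with RSEM. Per the file headers, the deposited values are expected counts, which are not normalized, TPM, which is scaled to effective length, and for each transcript its percent of the TPM of its gene. RSEM divides reads that several transcripts share, so that paralogs and isoforms are estimates.

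Expected counts were rounded, and 17348 of 35976 genes, those above 10 counts in 2 or more libraries, were kept. NF-YA cKO (n = 3) was compared with NF-YA fl/fl (n = 3) with edgeR 4.0.16 in R 4.3.3 (quasi-likelihood test after TMM normalization, with genotype alone in the model), over all genes. Genes with FDR under 0.01 and a log2 fold change beyond 1 were called. SE is the fold change divided by the root of F. Shares, ratios and transcripts were compared with two-sided exact permutation tests over all assignments of the libraries to the genotypes. The counting intervals used scipy 1.17.1. On simulated counts, 50 of 50 genes lowered by a log2 fold change of 4, 34 of 50 lowered by 2 and 1 of 16800 unchanged genes were called. Library totals give the depth, and the number of libraries limits the precision.

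The 10 genes, the lists and the motifs were chosen with earlier results of these data known. Named beside the 10 genes were, of each list, the 4 called genes with the largest change and at least 1 CPM, genes called against the majority, and relatives with at least 1 CPM. Cav3, Bin1, Atp2a1, Atp2a2, Itpr1, Ryr2 and the genes listed as not called were named after their values were seen. Transcripts were matched to GENCODE vM21 by RefSeq identifier. Promoters of Jph1, Ryr3, Trdn, Stac3 and Cacng1 were not analysed here. The alternatives tried included DESeq2 1.42.0, edgeR with size factors of DESeq2, filterByExpr, no filter, limma 3.58.1 on log2(TPM + 1) and log2(TPM + 0.1), the replicate number as a block, and leaving out each library. The values of 1 gene of the list of other triad and reticulum genes are not reported here.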

Additional observations from a re-analysis of the deposited data

How the results depend on the processing

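The number of coupling genes called lower was 9 and stayed between 8 and 10 in 13 alternative analyses, and that of the other triad and reticulum genes was 17 and stayed between 12 and 18. All 10 genes kept a negative log2 fold change in each of them, and 8 of the 10 were called in every one. The sizes moved for the genes near 0 in NF-YA cKO when 1 was added to TPM, to -1.24 from -4.63 for Ryr3, -3.56 from -8.47 for Trdn and -5.59 from -8.34 for Cacna1s. The exceptions were Jph2, called in 2 of the 13 (FDR 0.000619 to 0.0790), and Stac3, called in 9 of the 13 (FDR up to 0.0171). The median log2 fold change of all tested genes stayed between -0.09 and 0.01.

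Counts over all genes moved more. Against 1331 genes called lower and 806 called higher, limma on log2(TPM + 1) called 704 and 231, and limma on log2(TPM + 0.1) called 361 higher. Leaving out 1 library gave 523 to 1684 genes called lower and 177 to 890 called higher, the smaller counts coming without NF-YA cKO replicates 1, 2 or 3 or NF-YA fl/fl replicate 1. Relatives of the coupling genes called lower numbered 1 in place of 2 with limma on log2(TPM + 1) and 1 to 3 with a library left out. Relatives called higher numbered 0 in place of 1 without a filter and with limma on either scale, and 0 to 1 with a library left out. Genes of store-operated entry and IP3 receptors called higher numbered 2 in place of 1 with DESeq2 and without a filter, and 0 to 3 with a library left out, and those called lower 1 to 2. The difference in the Cacna2d1 share of α2δ transcripts, 0.0190 percentage points, changed sign to -0.0387 on expected counts and ranged from -0.266 to 0.219 with a library left out. The exon shares, whose alternatives were chosen after the data were seen, kept their direction in all of them, and that of the Cacna2d1 extension differed by -40.7 percentage points over all transcripts of the gene in place of -45.2.

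Libraries with the same replicate number differ in genotype and so are from different mice, and they are not known to share a batch. Their deviations correlated by 0.165, -0.0693 and 0.0527. With the replicate number as a block, 947 genes were called lower and 625 higher, 9 of the 10 coupling genes were called lower, and 0 relatives in place of 1 were called higher. At this depth, levels under 0.0705 to 0.115 CPM, as those of Trdn in 2 of the NF-YA cKO libraries, rest on 3 counts or fewer, and with 3 libraries a genotype the permutation tests cannot reach a p under 0.1.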
